A study of Mus musculus with 27 samples.

Results

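The libraries described here hold RNA of cells sorted from the ventral tegmental area (VTA) of mice at postnatal day 7 (P7) and postnatal day 30 (P30). They are the 3 P7 and the 3 P30 libraries of that region, 6 of 27 libraries in all, chosen by their region and age labels. The stated aim of the study was the development and function of dopamine neurons. Its other libraries came from the nucleus accumbens (NAc) and the substantia nigra pars compacta (SNc), and from day 60. All groups used here carry the genotype label C57/BL6, an inbred strain, and the labels name no treatment, transgene or deletion. Cells were isolated by flow cytometry as positive for the dopamine transporter (DAT), and the labels call them dopaminergic neurons. How DAT was marked for the sort is not given in the sources used here. RNA was measured by SMART-seq2, a full-length cDNA method for small numbers of cells. The design used 5 mice per age without tying mice to libraries, so libraries of an age may share mice and the p-values measure the spread between libraries, which may be technical. The library names carry a date and a code that differ between P7 and P30 and are shared within an age, so age and that batch cannot be told apart.

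The VTA lies in the ventral midbrain, and its dopamine neurons project to the nucleus accumbens and the prefrontal cortex. Dopamine neurons make their transmitter with tyrosine hydroxylase and dopa decarboxylase, load it into vesicles, and take it back up through DAT. Midbrain tissue also holds microglia, the resident macrophages of the brain, which enter early in development and take on their adult gene programme over the first postnatal weeks under CSF1 receptor and TGF-beta signals. Adult resting microglia are known for Tmem119, P2ry12 and the complement protein C1q, which marks synapses for removal.

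The 6 VTA libraries held 8313437 to 11147696 reads in genes. A value below is FPKM rescaled to the reads in genes of its library, that is fragments per kb of gene per 1000000 such reads. A count of 3 reads on a gene of 1 kb, taken as the limit of detection, corresponds to 0.269 to 0.361 of these units. P30 replicate 3 stood apart from the others. It had reads in 6786 genes, against 14546 and 14430 in the other P30 libraries and 13954 to 16278 at P7, and at least 10 reads in 2765 genes against 11492 to 14058. Its deposited values were on another scale, with a sum of FPKM times length of 55601698 against 684939 to 897386 in the other VTA libraries. Its rank correlation with each of the other P30 libraries was 0.494, while those correlated at 0.768 with each other and the P7 pairs at 0.624 to 0.678. The counts of each gene list are therefore given with all 6 libraries and again without P30 replicate 3, and a gene whose call it changes is given both ways.

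The dopaminergic label was checked against 20 marker genes, of which 12 passed the filter on low values. Slc6a3, the gene of DAT, had values of 0.0263, 0 and 0 at P7 and 2.64, 3.62 and 0 at P30. These stand for 1, 0 and 0 reads at P7 and 101, 104 and 0 reads at P30, so DAT transcript was at or near 0 in 4 of the 6 libraries. Th, tyrosine hydroxylase, read 0, 0.19 and 0.293 at P7 and 2.26, 0 and 0 at P30, with 0, 5 and 7 and 59, 0 and 0 reads. The midbrain dopamine factors Pitx3, Foxa1, Foxa2, En1 and En2, the nicotinic receptor subunit Chrna6 and the dopamine receptor Drd2 had 0 reads in all 6. The 20 markers together summed to 43, 68.1 and 28.6 at P7 and 25.3, 25.1 and 93.4 at P30. Slc18a2, the vesicular monoamine transporter, made up 0.689, 0.696 and 93.4 of the P30 sums. The 20 markers of homeostatic microglia summed to 2719, 2331 and 2514 at P7 and 40573, 35259 and 13196 at P30. Cst3 alone, whose values are given below, made up most of each P30 sum. The 15 pan-neuronal markers summed to 1070.3, 1704 and 709 at P7, so neuronal transcripts were present there too. Transcripts of other cells were also present. The 16 astrocyte markers summed to 1297, 749 and 799 at P7 and 1540, 1109 and 1259 at P30. The 15 endothelial markers summed to 536, 463 and 765 at P7 and 1047, 1145 and 704 at P30. The levels of Slc6a3, Th and the markers without reads thus go against the label, while Nr4a2, Slc18a2 and Ret had reads at P7. The cells are called sorted VTA cells below.

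Across the 18888 genes tested, 393 were higher at P30 (2.08%) and 3190 were lower (16.9%), by limma with an adjusted p under 0.05. Without P30 replicate 3 the counts were 954 (5.05%) and 1964 (10.4%). Called in both fits were 305 higher (1.61%) and 1877 lower (9.94%). The share of higher genes among those called was 11.0% with all libraries and 32.7% without P30 replicate 3, and it was 30.6% on the deposited scale, 33.8% with median-of-ratios scaling and 41.8% with quantile normalization. The median log2 change of all tested genes was -0.61, which moved to -0.25, -0.23, -0.18 and -0.01 under those 4 settings. Changes below are not shifted by this median, so a change near 0 lies above that of the median gene. The deposited scale and median-of-ratios scaling are close to the same scaling and are not independent settings. Both raise P30 replicate 3 far more than the other VTA libraries, with a size factor of 0.0188 against 0.974 to 1.42. The spread, and so each SE below, came from all 27 libraries and is shared by the regions. In a fit with library weights, where a low weight marks a wide spread, NAc P7 libraries had 4.93 to 5.68. VTA P7 libraries had 0.331 to 0.595 and VTA P30 replicate 3 had 0.1, so the SE may understate the spread of the VTA libraries. In a fit of the 6 VTA libraries alone no gene passed by limma, with 2833 at an unadjusted p under 0.05, and in a fit of the 5 VTA libraries without P30 replicate 3, chosen after seeing the data, 225 were higher and 253 lower.

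Genes of homeostatic microglia were among those higher at P30. Of 20 members tested, 11 rose and none fell, where 2.08% of all genes rose, with a median log2 change of 2.53, and without P30 replicate 3, 17 rose and none fell, with a median of 3.38. Without P30 replicate 1 the list had 8 higher and 1 lower, and without P30 replicate 2, 10 higher and 1 lower. In bulk libraries fewer cells of a type and less RNA per cell cannot be told apart, nor can more cells and more RNA per cell.

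Tmem119, a membrane protein of microglia (ENSMUSG00000054675; GRCm38, chromosome 5, 113793729 to 113800516), had values of 8.36, 16.9 and 12.8 at P7 and 3730.5, 2958 and 355 at P30. All P30 values lay above all P7 values, with replicate 3 the lowest of P30. Such a lack of overlap was a condition for naming the largest increases and decreases. Of the 18888 genes tested, 476 had every P30 value above every P7 value, and 3879 had every one below. The log2 change of Tmem119 was 6.90 ± 0.62 (SE of the limma fit over all 27 libraries, n = 3 libraries a group) with an adjusted p of 3.04e-07. It was 7.97 without P30 replicate 3. Selplg, the ligand of P-selectin, went from 2.19, 5.14 and 9.97 to 1123, 949 and 340.0, a change of 6.90 ± 0.53 (adjusted p = 3.97e-08). Cst3, the protease inhibitor cystatin C, was the most abundant member per length, with 1341, 937 and 1132 at P7 and 26427, 22791 and 10733 at P30. It rose by 4.05 ± 0.47 (adjusted p = 5.91e-06), and its groups did not overlap. Gpr34, a lysophosphatidylserine receptor, had 21.2, 0.0858 and 0.284 at P7 and 342, 356 and 11.8 at P30. P30 replicate 3 there lay below P7 replicate 1, so the groups overlapped, while the change was 5.21 ± 1.02 (adjusted p = 0.00090). Cx3cr1, the fractalkine receptor, went from 34, 37.9 and 42.7 to 261, 160.4 and 108, a smaller rise of 2.09 ± 0.62 (adjusted p = 0.0196) with no overlap. The Cx3cr1 call was lost without P30 replicate 1 (1.77, adjusted p = 0.0683) or P7 replicate 1 (2.02, adjusted p = 0.0566).

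Other microglial genes were uneven, and the next 5 were chosen after their values were seen. Csf1r, the receptor for CSF1 on which microglia depend, had 164, 148 and 97.5 at P7 and 288, 214 and 111 at P30, which overlapped, and did not pass the test (0.50 ± 0.56, adjusted p = 0.585). Fcrls read 439.8, 343 and 366 at P7 and 205, 234 and 2.27 at P30, with every P30 value below every P7 value, and did not pass either (-2.82 ± 1.02, adjusted p = 0.0537). Siglech, a sialic-acid-binding lectin, had 25.7, 20.1 and 30.4 and 299, 297 and 0.114, and Olfml3, a secreted matrix protein, 20.6, 19.8 and 58.8 and 555, 568 and 15.7. Both were near or below their P7 levels in P30 replicate 3 and far above them in the other P30 libraries, and they passed only without it (3.52 and 4.23, adjusted p = 0.000295 and 9.95e-05). Upk1b, a uroplakin, had no read at P7, and at P30 it read 49.4, 61.4 and 0.

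**Figure D1:**
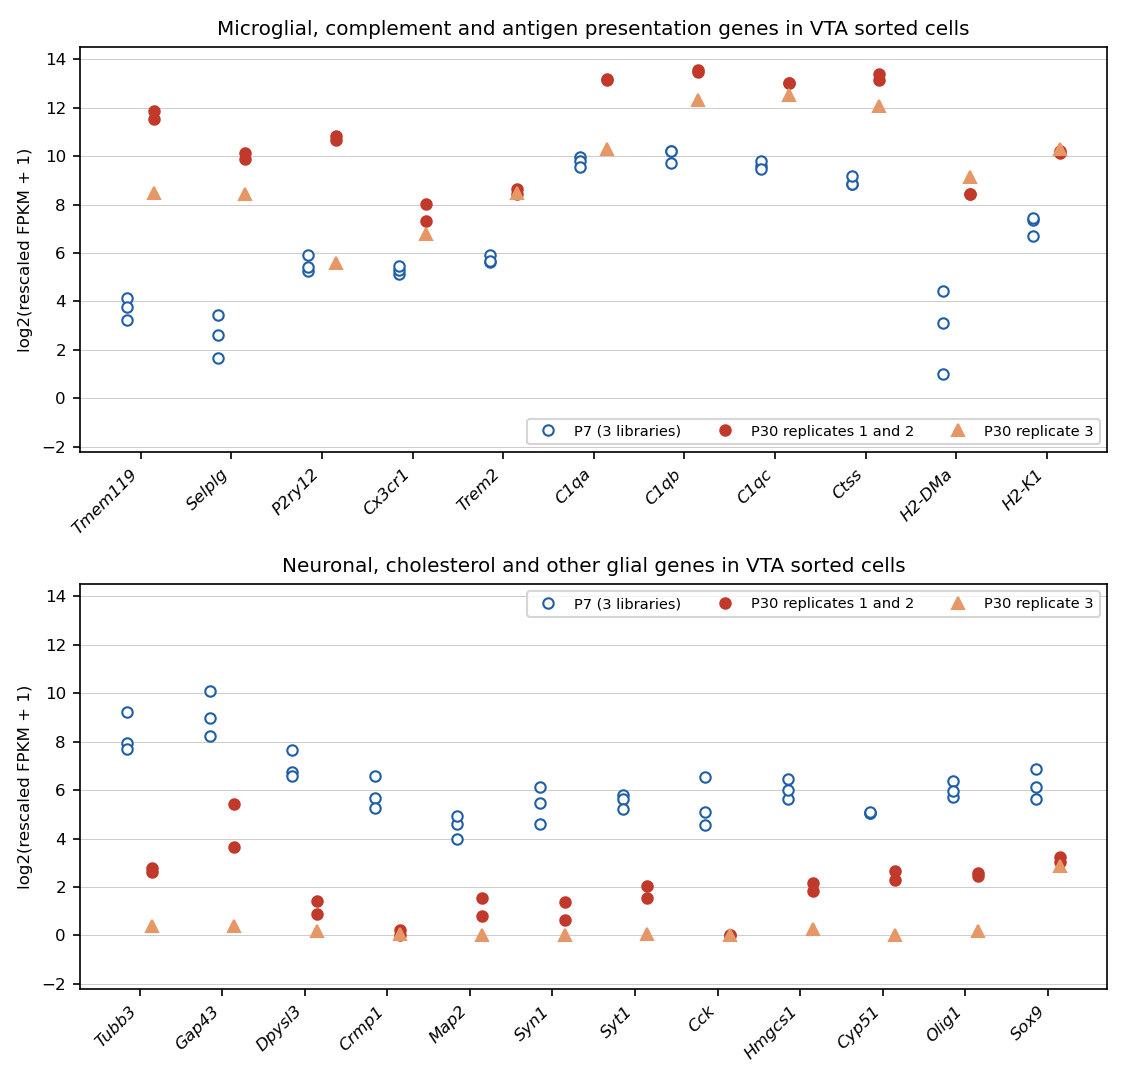
Values of 23 genes in each VTA library on a log2(rescaled FPKM + 1) axis, with open circles for P7, filled circles for P30 replicates 1 and 2 and triangles for P30 replicate 3. Tmem119 lies at 8.36 to 16.9 at P7 and at 355 to 3730.5 at P30, while Tubb3 lies at 208 to 595 at P7 and at no more than 5.92 at P30.

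Receptors and enzymes of purinergic signalling, by which microglia sense ATP and its products, had 4 of 12 tested members higher and 1 lower, where 2.08% of all genes were higher and 16.9% lower. Without P30 replicate 3 it was 5 higher and none lower, where 5.05% and 10.4% of all genes were, and without P30 replicate 1 it was 1 and 1. P2ry12, the ADP receptor that directs microglial processes, read 36.8, 58.7 and 42 at P7 and 1796, 1609.9 and 47 at P30. Replicates 1 and 2 of P30 were far above P7, and replicate 3 lay among the P7 values. The change was 3.49 ± 0.90 (adjusted p = 0.00754), it was 5.21 without P30 replicate 3, and it was no longer called without P30 replicate 1 (2.60, adjusted p = 0.0508). P2ry13, a related ADP receptor, went from 23.7, 16.7 and 23.1 to 153, 111 and 318 without overlap (3.01, adjusted p = 0.0121). Entpd1, the surface enzyme that degrades ATP and ADP, went from 5.89, 8.05 and 8.76 to 77.7, 52 and 27.1 without overlap. Its change was 2.53 (adjusted p = 0.0141), and 2.93 without P30 replicate 3. The Entpd1 call was lost without P30 replicate 1 (2.19, adjusted p = 0.0522). Adora1, an adenosine receptor also expressed by neurons, was the member that fell, from 22.5, 6.85 and 9.01 to 2.08, 1.68 and 1.65 (-2.13, adjusted p = 0.0274), and this call was lost without P30 replicate 3 (adjusted p = 0.0558), P30 replicate 2 (0.0552) or P7 replicate 1 (0.131). The Adora1 change was -0.096 on the deposited scale, -0.07 with median-of-ratios scaling and -0.628 with quantile normalization, and it was called in none of these.

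Complement genes rose in part. With or without P30 replicate 3, 7 of 16 tested members were higher and none lower, with a median log2 change of 1.59 and 1.83. Of all genes 2.08% were higher with it and 5.05% without it. Without P30 replicate 2 it was 4 higher and 1 lower. The members that rose included the 3 chains of C1q, which opens the classical pathway, the receptor subunits Itgam and Itgb2, and the C5a receptor C5ar2. C1qb read 836, 1175 and 1191 at P7 and 11968, 11207 and 5152 at P30. Its groups were far apart and the change was 3.07 ± 0.40 (adjusted p = 1.61e-05). C1qc (ENSMUSG00000036896; chromosome 4, 136889804 to 136893065) went from 759, 877 and 715 to 8312, 8251 and 5809.9, a change of 3.23 ± 0.43 (adjusted p = 2.11e-05). C1qa went from 987, 892 and 753 to 8921, 9316 and 1250.3, again without overlap, although P30 replicate 3 was only slightly above P7. The C1qa change of 2.43 ± 0.71 (adjusted p = 0.0176) grew to 3.38 without P30 replicate 3 and was not called without P30 replicate 1 (1.97, adjusted p = 0.0755) or P30 replicate 2 (1.94, adjusted p = 0.0812). It was not called with quantile normalization either (1.05). C5ar2 was near its detection limit at P7, with 2, 0 and 1 reads, and read 14.9, 17.3 and 203 at P30.

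Phagocytosis genes had 6 of 21 members higher and 2 lower, the latter a smaller share than the 16.9% of all genes that were lower. Of all genes 2.08% were higher. Without P30 replicate 3, 9 members were higher and 1 lower, where 5.05% and 10.4% of all genes were. Trem2, a lipid receptor of microglia, went from 59.7, 47.8 and 49.9 to 403, 344 and 358 (2.79 ± 0.62, adjusted p = 0.00248). Fcer1g, a signalling chain of Fc receptors, went from 329.9, 324 and 223 to 1716, 1619 and 1395 (2.44 ± 0.55, adjusted p = 0.00283). In both genes all P30 libraries, replicate 3 included, lay well above P7. Cd47, the "don't eat me" ligand that many cells carry, fell from 50.2, 67.5 and 33.4 to 8.7, 12.3 and 11.1 (-2.09, adjusted p = 0.00195), but its sign turned on the deposited scale (0.135) and with median-of-ratios scaling (0.19).

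Among 25 cathepsin and lysosome genes, 3 rose and none fell, and without P30 replicate 3, 9 rose. Of all genes 2.08% and 5.05% rose in these fits. On the deposited scale 12 rose, with median-of-ratios scaling 15 rose, and with quantile normalization 1 rose and 1 fell. The list's median log2 change was 0.28 with all libraries and 1.05 without P30 replicate 3. Its sign turned without P30 replicate 1 (-0.31) or P30 replicate 2 (-0.145). Ctss, cathepsin S, a protease of macrophages (ENSMUSG00000038642; chromosome 3, 95526786 to 95556403), read 461, 464 and 572 at P7 and 9139, 10682 and 4274 at P30. The groups were separated in every library, and the change was 3.91 ± 0.45 (adjusted p = 5.44e-06). Ctsz, another cathepsin, rose less, from 499, 491 and 776 to 3115, 2807 and 831 (1.75 ± 0.41, adjusted p = 0.00382). With quantile normalization Ctsz was not called (0.49).

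The promoters of Ctss and C1qc are shown because both genes rose in each fit and their windows hold the purine-rich motif GAGGAAGT, a core recognised by the macrophage factor PU.1. Each window is 300 bases of RefSeq GRCm38.p6, from 250 before to 50 after the start site, with the start site as RefSeq has it, which need not be that of the deposited annotation. Sequences are read on the gene's own strand, and the motif was searched on both strands. Capitals mark the match, which in both windows is the reverse complement ACTTCCTC, beginning at -2 in Ctss (chr3:95526536-95526835, plus strand) and at -195 in C1qc (chr4:136892865-136893164, minus strand).
Ctss: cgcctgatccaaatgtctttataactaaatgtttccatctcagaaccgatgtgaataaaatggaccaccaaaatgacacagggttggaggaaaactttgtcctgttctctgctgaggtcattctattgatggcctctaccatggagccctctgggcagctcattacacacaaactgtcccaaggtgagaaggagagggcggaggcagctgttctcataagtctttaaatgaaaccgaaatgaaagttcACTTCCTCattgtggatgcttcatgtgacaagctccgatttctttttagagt
C1qc: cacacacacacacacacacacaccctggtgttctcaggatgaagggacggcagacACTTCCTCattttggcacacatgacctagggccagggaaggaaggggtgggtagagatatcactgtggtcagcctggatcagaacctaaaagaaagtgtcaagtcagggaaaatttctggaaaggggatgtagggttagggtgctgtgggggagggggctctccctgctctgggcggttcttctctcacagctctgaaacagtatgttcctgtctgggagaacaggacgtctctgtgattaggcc
The motif was in 3.2% of all 32851 RefSeq windows and in 3.58% of the 11744 tested genes with a window. It was in 18 of the 213 genes with a window that were higher in both fits (8.45%) and in 33 of the 1285 that were lower (2.57%). Of 13 homeostatic microglia genes with a window 0 held it, of 12 complement genes 1 did, and of 19 lysosome genes 3 did. A match is a description of letters and shows no binding.

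Antigen presentation genes rose in part. Across all genes 2.08% were higher, and 5.05% without P30 replicate 3. In the MHC class I list 3 of 15 members were higher and none lower, and without P30 replicate 3, 5 were higher. The class I median of 0.19 turned negative without P30 replicate 1 (-0.077) or P30 replicate 2 (-0.13), and was 1.92 without P30 replicate 3. H2-K1, a classical class I heavy chain, went from 164, 171 and 104 to 1111, 1185 and 1264 (3.04 ± 0.68, adjusted p = 0.00265). Tapbp, which loads peptide onto class I, went from 46.8, 36.6 and 21.3 to 217, 206 and 184 (2.57 ± 0.49, adjusted p = 0.000782). Both were higher in each P30 library. H2 class I genes are near-identical copies, so reads may be split between them. In the class II list 2 of 9 members rose, and 5 without P30 replicate 3, with a median of 1.90 and 3.11. It was 1 without P30 replicate 1 or P30 replicate 2, and 4 under each other scaling. H2-DMa, a chaperone that helps load class II, went from 7.64, 0.984 and 20.5 to 347, 344 and 558 (5.82 ± 0.99, adjusted p = 0.000261). Cd74, the class II invariant chain and chosen after its values were seen, had 65.8, 50.8 and 37.5 at P7 and a wide spread at P30 of 1235, 157 and 1.03, and did not pass (adjusted p = 0.899).

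Microglial lineage factors had 3 of 17 tested members higher and none lower, and 7 higher and 1 lower without P30 replicate 3. Of all genes 2.08% were higher and 16.9% lower, and 5.05% and 10.4% without P30 replicate 3. Bhlhe41 went from 21.4, 11.3 and 14 to 89.9, 106 and 1806 (4.02 ± 0.97, adjusted p = 0.00505). Here P30 replicate 3 was the highest library by far, and the change without it was 2.62 (adjusted p = 0.0378). Cebpa, a myeloid factor, showed the same order, with 0.965, 1.63 and 0 at P7 and 12.9, 12.6 and 166 at P30 (4.19 ± 0.98, adjusted p = 0.00371). Irf8, needed for microglial development, went from 28.6, 24.9 and 15.6 to 161, 136 and 51.3 without overlap (2.17 ± 0.71, adjusted p = 0.0319), and its call was lost without any single VTA library other than P30 replicate 3 (adjusted p from 0.0503 without P7 replicate 1 to 0.0977 without P7 replicate 3). Of 17 CSF1 receptor and TGF-beta genes 1 rose and 1 fell, and without P30 replicate 3, 2 rose and 1 fell. Tgfbr1, the type 1 TGF-beta receptor, rose from 1.13, 2.68 and 7.2 to 20.4, 19.6 and 26.5 (2.52, adjusted p = 0.00181). Tgfb2, a ligand, fell from 10.2, 22 and 16.6 to 1.89, 2.22 and 0.0167 (-2.97, adjusted p = 0.00216).

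Neuronal genes moved the other way. Of 15 pan-neuronal genes 14 fell, 11 without P30 replicate 3, with a median log2 change of -3.42 and -3.16. All 18 tested genes of axon growth and immature neurons fell, 15 without P30 replicate 3, with medians of -4.09 and -3.68. Of 20 genes of synaptic vesicles and release 14 fell, and 15 without P30 replicate 3, with medians of -3.18 and -2.66. None of the 3 lists had a member that rose, and their medians stayed negative under each scaling tried. Of all genes 16.9% fell, and 10.4% without P30 replicate 3. The summed pan-neuronal level was 1070.3, 1704 and 709 at P7 and 80.9, 44.7 and 2.98 at P30. The microglial sum given above moved the other way across the same libraries, and its part in the neuronal result was not tested.

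Tubb3, the neuronal beta-tubulin, read 243, 595 and 208 at P7 and 5.08, 5.92 and 0.31 at P30. It was low in every P30 library, with a change of -6.36 ± 0.81 (adjusted p = 1.44e-05). Dpysl3, a protein of growth cones, went from 106, 198 and 95.2 to 1.7, 0.864 and 0.123 (-6.16 ± 0.65, adjusted p = 2.64e-06). Gap43, the growth cone protein, went from 497, 1091 and 297 to 11.5, 41.7 and 0.317 (-5.94 ± 0.90, adjusted p = 8.22e-05). Stmn2, which acts on microtubules in growing axons, went from 107, 177 and 67.5 to 2.87, 4.06 and 0.155 (-5.28 ± 0.60, adjusted p = 5.44e-06). Each of these genes was at least moderately abundant at P7 and close to the detection limit in P30 replicate 3. Crmp1, a relative of Dpysl3, went from 50.4, 95.3 and 37.1 to 0.18, 0 and 0.0548 (-5.74 ± 0.52, adjusted p = 3.04e-07).

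Of the release machinery, Syn1, the vesicle protein synapsin I (ENSMUSG00000037217; chromosome X, 20860511 to 20921004), read 43.2, 68.7 and 23.5 at P7 and 1.62, 0.547 and 0 at P30. The groups did not overlap, and the change was -4.73 ± 0.66 (adjusted p = 3.69e-05). Syt1, the calcium sensor of release, went from 55.4, 48.3 and 36.3 to 1.92, 3.15 and 0.0347 (-4.34 ± 0.62, adjusted p = 4.01e-05). The fall was present in all 3 P30 libraries for both. Map2, a dendritic microtubule protein, went from 14.6, 23.4 and 29.1 to 1.89, 0.739 and 0.0117 (-3.72, adjusted p = 2.89e-05).

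The promoter of Syn1 is shown because it holds TTCAGCACC, a half-site of the RE1 element bound by the repressor REST. The window is chrX:20920869-20921168 on the minus strand in RefSeq GRCm38.p6, and capitals mark the match, which begins at -232 from the start site.
Syn1: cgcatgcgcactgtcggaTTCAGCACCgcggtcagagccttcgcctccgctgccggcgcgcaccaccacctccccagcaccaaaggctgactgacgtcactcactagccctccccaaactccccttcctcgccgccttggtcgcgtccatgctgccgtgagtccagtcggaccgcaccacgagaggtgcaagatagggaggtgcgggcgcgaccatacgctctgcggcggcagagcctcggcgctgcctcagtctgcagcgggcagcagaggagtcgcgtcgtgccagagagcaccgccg
That motif, searched on both strands (reverse complement GGTGCTGAA), was in 0.371% of all windows, in 0.519% of tested genes, in 1.25% of the genes lower in both fits (16 of 1285) and in 1 of the 213 higher ones (0.469%).

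Genes of single transmitter types gave smaller counts. Across all genes 16.9% fell and 2.08% rose, and without P30 replicate 3, 10.4% fell and 5.05% rose. Of 11 GABAergic genes 6 fell and 1 rose, and without P30 replicate 3, 3 fell and 1 rose. Of 5 glutamatergic genes 2 fell, and 1 without P30 replicate 3. Slc17a6, the vesicular glutamate transporter, went from 67.5, 38.5 and 28.7 to 0.82, 7.71 and 0.0357 (-4.09 ± 0.66, adjusted p = 0.000155). Gad1, which makes GABA, went from 8.1, 4.81 and 20.4 to 0, 0 and 0.0126 (-3.38 ± 0.65, adjusted p = 0.000839), and Gad2 from 6.85, 5.25 and 20.4 to 0.169, 0.0205 and 0 (-3.26 ± 0.63, adjusted p = 0.000873). Of the dopaminergic list 2 of 12 members fell, about the 16.9% share of all genes that did, and none rose. Without P30 replicate 3, 2 fell and 1 rose. Nr4a2, the factor Nurr1, had 17.2, 15.7 and 9.57 at P7 and 0 or 1 read in each P30 library (-3.86 ± 0.61, adjusted p = 0.000121). Ret, the receptor for GDNF, fell from 0.403, 2.69 and 6.05 to 0, 0.178 and 0 (-1.65, adjusted p = 0.0201), which was lost without P30 replicate 3 (adjusted p = 0.0544), P7 replicate 2 (0.055) or P7 replicate 3 (0.117). Slc18a2 had 1.84, 28.6 and 5.76 at P7 and 0.689, 0.696 and 93.4 at P30. P30 replicate 3 held the highest value and the other P30 libraries the lowest, and the change was -0.36 ± 1.04 (adjusted p = 0.892) with it and -2.29 (adjusted p = 0.0441) without it. Slc6a3, Th and Ddc did not pass in either fit (adjusted p = 0.331, 0.876 and 0.233 with all libraries). Tal1, in the GABAergic list and also a factor of blood lineages, rose from 0.0207, 0.123 and 0 to 3.8, 4.01 and 21.7 (2.96, adjusted p = 0.000611).

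**Figure D2:**
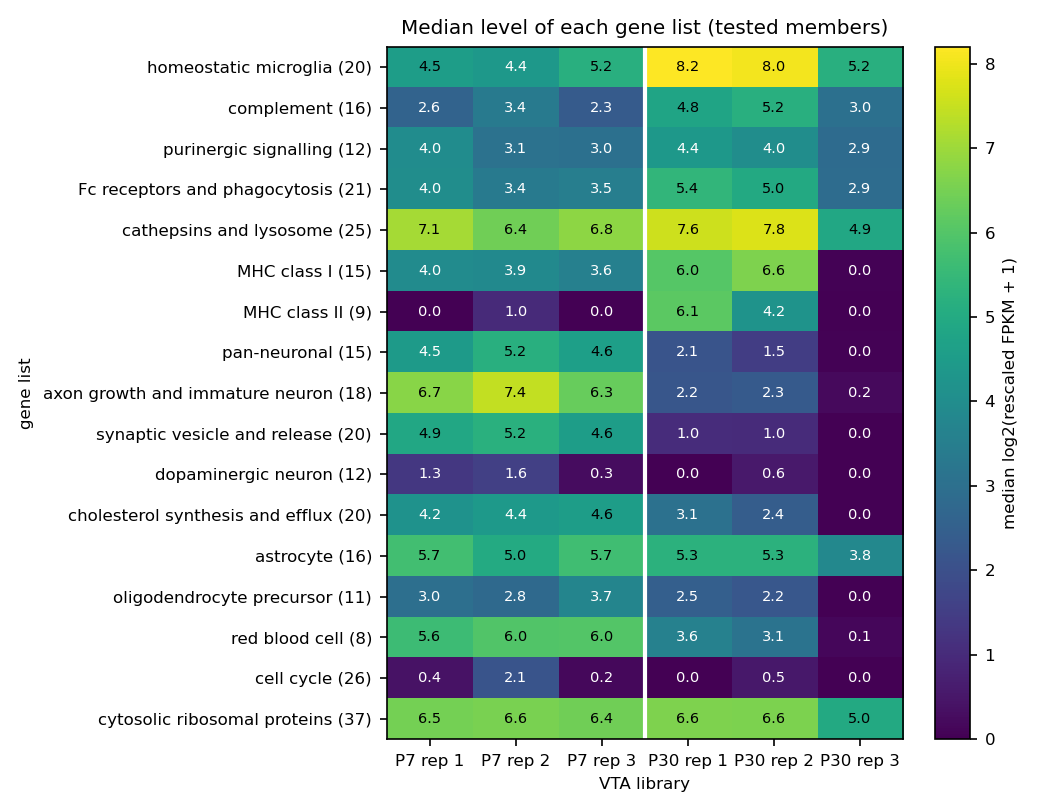
Median log2(value + 1) over the tested members of each gene list (their number in brackets) in each of the 6 VTA libraries, drawn as colour with the value in each cell. The pan-neuronal, axon growth and synaptic lists lie lower in every P30 library than in any P7 library, while the homeostatic microglia list is above its P7 levels in P30 replicates 1 and 2 and near them in replicate 3.

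Cholesterol genes fell in part. Of 20 tested members 11 were lower and none higher, and without P30 replicate 3, 6 were lower, with medians of -1.91 and -1.32. Of all genes 16.9% and 10.4% were lower in these fits, with medians of -0.61 and -0.25. Hmgcs1, the HMG-CoA synthase (ENSMUSG00000093930; chromosome 13, 119690379 to 119708260), read 87.3, 48.1 and 63.7 at P7 and 3.44, 2.57 and 0.189 at P30. It was low in all P30 libraries, a change of -4.62 ± 0.54 (adjusted p = 5.91e-06). Cyp51, a demethylase of lanosterol, went from 32.4, 31.9 and 33.2 to 5.34, 3.95 and 0 (-3.41 ± 0.65, adjusted p = 0.000716). Lss, which makes lanosterol, went from 12, 6.44 and 13.4 to 1.11, 0.569 and 0 (-2.91, adjusted p = 0.00527). The pan-neuronal sum given above fell across the same libraries, and its part in the cholesterol result was not tested.

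The promoter of Hmgcs1 is shown because it is the 1 of 13 cholesterol genes with a window that holds TCACNCCAC, the sterol regulatory element recognised by SREBP. The window is chr13:119690101-119690400 on the plus strand in RefSeq GRCm38.p6, and capitals mark the match at -137.
Hmgcs1: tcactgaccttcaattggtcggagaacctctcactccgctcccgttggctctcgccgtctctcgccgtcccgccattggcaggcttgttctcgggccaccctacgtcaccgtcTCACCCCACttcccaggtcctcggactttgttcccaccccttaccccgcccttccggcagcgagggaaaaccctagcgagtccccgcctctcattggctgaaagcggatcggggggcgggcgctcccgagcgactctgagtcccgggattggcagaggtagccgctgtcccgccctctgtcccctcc
The motif, searched on both strands (reverse complement GTGGNGTGA), was in 1.24% of all windows and in 1.41% of tested genes. It was in 24 of the 1285 genes lower in both fits (1.87%) and in 6 of the 213 higher ones (2.82%), a larger share of the higher genes than of the lower ones.

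Genes of other cells were mixed. For each list here, 16.9% of all genes fell and 2.08% rose, and without P30 replicate 3, 10.4% fell and 5.05% rose. Of 8 tested red blood cell genes 7 fell, 6 without P30 replicate 3, and 3 on the deposited scale or with median-of-ratios scaling, with a median of -3.47, and their sum was 865, 2204 and 1684 at P7 and 155, 78.2 and 287 at P30. Hba-a2, an alpha-globin with a near-identical copy, went from 93.7, 267 and 229 to 11.9, 5.59 and 0.145 (-5.29 ± 1.03, adjusted p = 0.000913). Of 16 astrocyte genes 1 rose and 3 fell, the latter about the 16.9% share of all genes, and without P30 replicate 3, 2 rose and 2 fell. On the deposited scale 4 rose, with median-of-ratios scaling 5 rose, and none fell in either. The list's median of -0.46 turned positive without P30 replicate 3 (0.25), on the deposited scale (1.78) and with median-of-ratios scaling (1.83). Gjb6, connexin 30, rose from 2.55, 0.704 and 0.556 to 36, 40.0 and 212 (5.02, adjusted p = 2.74e-05), and Sox9, a glial factor, fell from 116, 68.5 and 48.1 to 7.08, 8.32 and 6.23 (-3.17, adjusted p = 0.0012), a call lost on the deposited scale (-0.97) and with median-of-ratios scaling (-0.92). Mbp and Mag, proteins of myelin, were the 2 of 15 myelin genes that rose, 3 without P30 replicate 3, Mbp from 17.2, 4.56 and 18.7 to 74.7, 69.8 and 40.7 (2.27, adjusted p = 0.00346). Of 11 genes of oligodendrocyte precursors 3 fell, and without P30 replicate 3, 3 fell and 1 rose. Olig1 and Sox10, factors of the oligodendrocyte lineage, fell, Olig1 from 52.2, 81.5 and 62.2 to 4.56, 4.95 and 0.134 (-4.28, adjusted p = 0.000106). Of 15 endothelial genes none was called with all libraries, at an adjusted p under 0.05 by limma, and 1 was without P30 replicate 3. Of 9 ependymal and choroid plexus genes 1 fell and none rose, and without P30 replicate 3, 3 rose and 1 fell, with medians of 0.29 and 0.51. Ttr, made by the choroid plexus and the member that fell, had the largest fall among genes chosen for size, from 124, 137 and 515 to 0.297, 5.13 and 0.237 (-6.60 ± 1.06, adjusted p = 0.000146). Of 16 monocyte and neutrophil genes 6 were tested, and S100a8 and S100a9 fell to 0 reads at P30, a call lost without P30 replicate 3 (adjusted p = 0.0772 and 0.0565) or P7 replicate 2 (0.17 and 0.158), and for S100a8 also without P30 replicate 1 (0.065), P30 replicate 2 (0.0661) or P7 replicate 3 (0.103). Without P30 replicate 3, 1 of the 6 rose.

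Inflammatory genes went both ways. For each list here, 2.08% of all genes rose and 16.9% fell with all libraries, and 5.05% and 10.4% without P30 replicate 3. Among 17 chemokines 2 rose and 4 fell, and without P30 replicate 3, 3 rose and 1 fell. Ccl9 rose from 0.0298, 9.46 and 0.13 to 61.4, 63.4 and 253 (5.45 ± 0.98, adjusted p = 0.000427), with all P30 libraries above P7. Cx3cl1, the neuronal ligand of Cx3cr1, fell from 15.9, 26.5 and 16.4 to 2.76, 2.82 and 0 (-3.05 ± 0.63, adjusted p = 0.00146). Cxcl2 had a wide spread at P7, 39.2, 774 and 101, against 11.9, 16.7 and 1.68 at P30, and Il1b had 22, 62.3 and 42.6 against 10.5, 2.46 and 0.303. Both were called lower with all libraries (adjusted p = 0.0238 and 0.0412) and not without P30 replicate 3 (0.108 and 0.164). Without P7 replicate 2 the Cxcl2 call was lost too (-2.91, adjusted p = 0.146), and the Il1b call was lost without any single VTA library other than P30 replicate 1 (adjusted p up to 0.164). Neither was called on the deposited scale (-2.06 for Cxcl2 and -1.82 for Il1b) or with median-of-ratios scaling (-2.00 and -1.77). Of 18 cytokine and receptor genes 1 rose and 2 fell, and without P30 replicate 3, 2 rose and none fell. Il10rb, a receptor chain for IL-10, rose from 4.08, 2.78 and 0.026 to 30.1, 33.6 and 19.3 (3.37, adjusted p = 0.000148). Of 20 interferon response genes 2 rose and 1 fell, and without P30 replicate 3, 4 rose and 1 fell. Bst2, an interferon-induced membrane protein, rose from 78.1, 63.9 and 27.8 to 231, 272 and 146 (1.99, adjusted p = 0.00493). Of 23 immediate early genes 2 rose and 3 fell, the latter a smaller share than the 16.9% of all genes. Without P30 replicate 3, 8 rose and 2 fell, and the median log2 change went from 0.55 to 1.19. On the deposited scale and with median-of-ratios scaling 12 rose and 2 fell. Klf2 went from 1.08, 10.7 and 3.38 to 27.4, 79 and 207 (4.04, adjusted p = 0.000325), and Klf6 from 104, 123 and 30.7 to 384, 264 and 339.8 (2.14, adjusted p = 0.00655), the latter lost without P7 replicate 3 (1.52, adjusted p = 0.0544). Of 20 postnatal and disease-associated microglia genes none rose and 5 fell with all libraries, and 4 rose and 2 fell without P30 replicate 3.

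Of 26 cell cycle genes 3 fell and none rose, and 2 fell without P30 replicate 3, in both fits a smaller share than that of all genes that fell (16.9% and 10.4%). Ccna2, cyclin A2, went from 10.1, 5.67 and 6.53 to 0, 1.71 and 0 (-2.56, adjusted p = 0.000747). Mki67, the Ki-67 antigen of dividing cells, went from 1.14, 4.12 and 1.91 to 0, 0.263 and 0 (-1.55, adjusted p = 0.00856), which was lost without P7 replicate 2 (-1.21, adjusted p = 0.0558). Of 31 nuclear oxidative phosphorylation genes and 37 ribosomal protein genes none was called with all libraries, and 2 and 1 were higher without P30 replicate 3, with 5 and 9 higher on the deposited scale and 5 and 11 with median-of-ratios scaling. Of 13 mitochondrially encoded genes 4 fell, where 16.9% of all genes did, and 5 fell without P30 replicate 3. Their median of -0.56 turned to 1.69 on the deposited scale, where 1 rose and 1 fell, and to 1.76 with median-of-ratios scaling, where 2 rose and 1 fell. Those that fell included mt-Nd1, a subunit of complex I, from 27910.0, 19268 and 32812 to 9554, 13722 and 4605 (-1.62, adjusted p = 0.0036), whose sign turned on the deposited scale (0.64) and with median-of-ratios scaling (0.71). Of 17 glycolysis genes 1 rose and 4 fell, where 2.08% and 16.9% of all genes did. Without P30 replicate 3, 3 of these rose and 1 fell, where 5.05% and 10.4% of all genes did. Pfkp, a phosphofructokinase of glycolysis, fell from 25.2, 41 and 12.8 to 3.99, 1.86 and 7.27 (-2.33, adjusted p = 0.00473), which was not called on the deposited scale (-0.12), with median-of-ratios scaling (-0.085) or with quantile normalization (-1.34).

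Among the largest rises outside the lists, Clec4a3, a C-type lectin, went from 0.137, 0.338 and 0 to 95.8, 49.3 and 466 (6.84 ± 1.12, adjusted p = 0.000169). Ang, angiogenin, went from 0, 6.12 and 33.5 to 252, 235 and 1196 (6.05 ± 0.95, adjusted p = 0.000118), and F11r, a junction adhesion molecule, from 20.5, 3.33 and 0.0744 to 622, 597 and 44 (5.79 ± 0.87, adjusted p = 7.34e-05). Clec4a3 and Ang were highest in P30 replicate 3, and F11r was lowest there. Bin2, a membrane-curving protein of blood cells, had no read at P7 and 261, 244 and 5.99 at P30. Gkn3 had 0, 1 and 0 reads at P7 and values of 47.8, 19.1 and 529 at P30. Zfp691, a zinc finger protein, went from 2.84, 3.22 and 2.73 to 120.0, 68.8 and 758 (5.57, adjusted p = 4.7e-05). Tmem173, the protein STING of the innate DNA-sensing pathway, had 0, 1 and 0 reads at P7 and values of 304, 279 and 0.0838 at P30, so replicate 3 was near the detection limit. Tpm3-rs7 and its near-identical copies cannot be told apart by reads.

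Among the other large falls, Cck, the neuropeptide cholecystokinin, went from 92.7, 33.3 and 22.5 to 0 reads in each P30 library. Nsg1, an endosomal protein of neurons, went from 187, 307 and 253 to 9.14, 7.6 and 0.27 (-5.67 ± 0.93, adjusted p = 0.000172). Cnih2, which binds AMPA receptors, went from 82.1, 160.1 and 69.6 to 0, 4.28 and 0 (-5.82 ± 0.65, adjusted p = 4.38e-06). In these 3 genes no P30 value reached a P7 value, which was a condition for their choice. Of the 18888 genes tested, 3879 had every P30 value below every P7 value. Tubb2b, another beta-tubulin, went from 132, 166 and 88.8 to 4.53, 0.996 and 0.126 (-5.77 ± 0.83, adjusted p = 4.41e-05). Tmem145 (82.4, 66.2 and 83.3 at P7) and Necab2 (70.6, 128 and 24.2) were at or near 0 in all P30 libraries, and Fxyd7 went from 91.1, 67.2 and 85.7 to 1.96, 0 and 0.139.

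**Figure D3:**
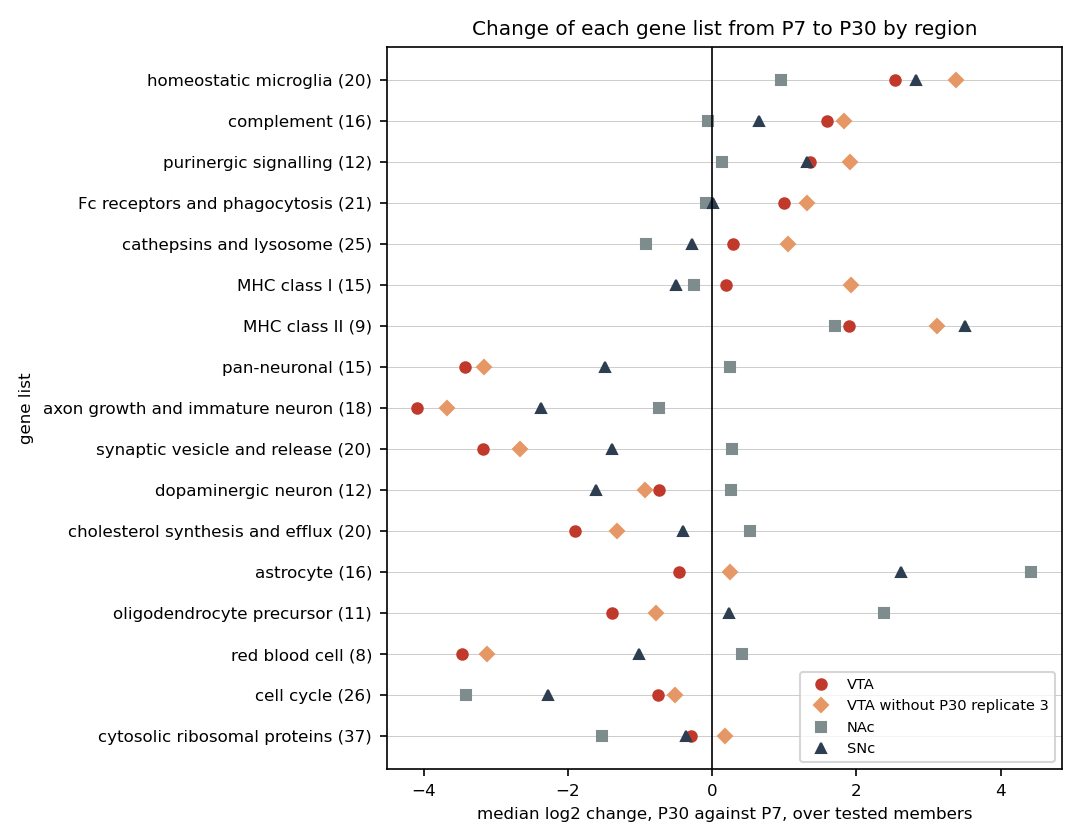
Median log2 change from P7 to P30 over the tested members of each gene list (their number in brackets) in VTA with all libraries, in VTA without P30 replicate 3, in NAc and in SNc. Axon growth genes lie at -4.09 and -3.68 in the VTA fits and homeostatic microglia at 2.53 and 3.38, and the median VTA change of all tested genes was -0.61 and -0.25 in those fits.

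Whether the VTA change differed from that of the other regions was tested as the VTA change minus the mean of the NAc and SNc changes over the same ages, which share no libraries with VTA. Of all genes 284 (1.5%) had a higher change in VTA and 1767 (9.36%) a lower one, and without P30 replicate 3, 604 (3.2%) and 1155 (6.11%). Complement had 4 of 16 members with a higher change and 1 with a lower one, and 6 and none without P30 replicate 3. The median log2 changes of that list were -0.06 in NAc and 0.65 in SNc. For C1qc the VTA change exceeded the mean of the others by 2.77 ± 0.52 (adjusted p = 0.00172), with -0.49 in NAc and 1.41 in SNc. For Ctss the difference was 3.03 ± 0.55 (adjusted p = 0.00128), with -0.46 in NAc and 2.21 in SNc. Of 20 homeostatic microglia genes 2 had a higher change in VTA and none a lower one, and 9 a higher one without P30 replicate 3. The median change of these genes was 0.96 in NAc and 2.83 in SNc, beside 2.53 in VTA. For MHC class II the medians were 1.71, 3.51 and 1.90, with 1 of 9 members higher in VTA. Of 26 cell cycle genes 10 had a higher change in VTA and none a lower one, and 11 a higher one without P30 replicate 3. With a pseudocount of 0.1 it was 5, and with voom 3. The medians of that list were -3.41 in NAc, -2.27 in SNc and -0.75 in VTA. Its median log2 levels in VTA at P7 were low, at 0.40, 2.13 and 0.19. Tmem119 rose in every region, by 3.18 in NAc, 5.72 in SNc and 6.90 in VTA. Its VTA change was larger than the mean of the other 2 by 2.45 ± 0.76 (adjusted p = 0.0386). Its P30 levels were 1936 ± 237 in NAc and 2245 ± 495 in SNc (SD, n = 3), beside 2348 ± 1768 in VTA, and its P7 levels were 212 ± 12.9, 42.6 ± 15.1 and 12.7 ± 4.27. The mean at P7 was thus highest in NAc and lowest in VTA.

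Pan-neuronal genes had 11 of 15 members with a lower change in VTA, where 9.36% of all genes had one, 7 without P30 replicate 3, 8 on the deposited scale and 5 with quantile normalization, and the list medians were 0.24 in NAc and -1.48 in SNc. Dclk1, a microtubule-associated kinase of growing neurons, went from 24.6, 23.7 and 18.3 to 1.17, 0.433 and 0.322 in VTA and differed by -4.69 ± 0.54 (adjusted p = 0.000107). Hmgcs1 differed by -4.22 ± 0.66 (adjusted p = 0.000493), and 7 of 20 cholesterol genes had a lower change in VTA, 5 without P30 replicate 3. Astrocyte genes had 13 of 16 members with a lower change in VTA and none with a higher one, 14 without P30 replicate 3, but 4 on the deposited scale or with median-of-ratios scaling, with list medians of 4.43 in NAc and 2.62 in SNc. Outside the lists, Arhgdib, a regulator of small GTPases in blood cells, went from 11.4, 45.1 and 10.2 to 410.3, 386 and 309 and differed by 4.44 ± 0.67 (adjusted p = 0.000428). Ltc4s, leukotriene C4 synthase, went from 0.448, 7.52 and 2.93 to 115, 142 and 152 and differed by 4.27 ± 0.72 (adjusted p = 0.000866). Clcn2, a chloride channel, went from 9.05, 5.57 and 5.32 to 0.09, 0.0999 and 0 and differed by -5.05 ± 0.62 (adjusted p = 0.000114).

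**Figure D4:**
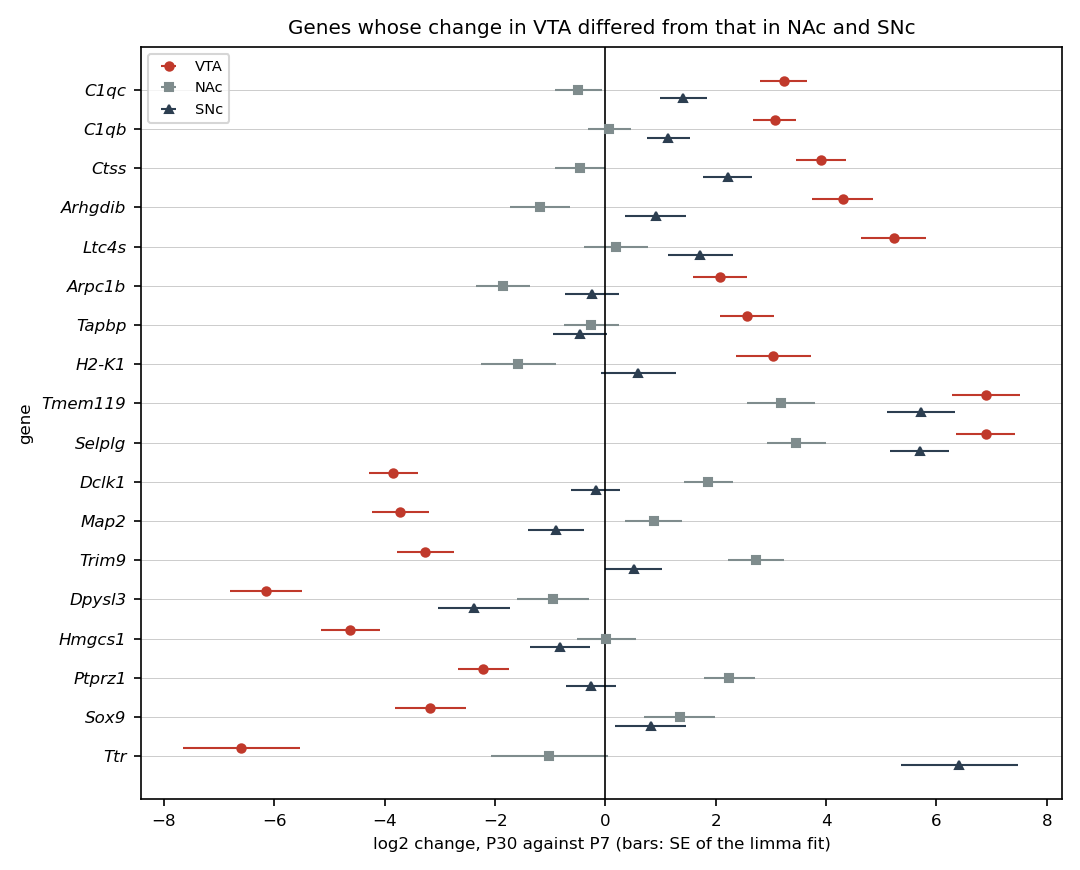
Log2 change from P7 to P30 in VTA, NAc and SNc for 18 genes whose VTA change differed from the mean of the NAc and SNc changes. Bars are 1 SE of the limma fit. VTA was not tested against NAc or SNc alone. Selplg stood at 6.90 in VTA, 5.69 in SNc and 3.46 in NAc. C1qc stands at 3.23 in VTA beside -0.49 in NAc and 1.41 in SNc, and Dclk1 at -3.85 beside 1.87 and -0.17, while the differences for Sox9 and Ptprz1 were not called on the deposited scale (-2.10 and -1.01).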

How the data were processed

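FPKM of 54532 genes were deposited for 26 of 27 libraries, while those of VTA P30 replicate 3 were deposited as a signal proportional to FPKM on another scale. The divisor behind the deposited values, per read in genes, was close to the median-of-ratios size factor in that library (0.018 and 0.0188). Over all libraries the ratio of these 2 factors was 0.958 to 1.17. Gene lengths were deposited in another unit, bases. Per the submitters' processing notes, reads were aligned with HISAT2 to GRCm38/mm10; the counter is not given in the sources used here. Gene IDs were restored to their mouse form and given symbols by ID (54409 matched), since 443 deposited names match their ID. Each library was divided by its sum of FPKM times length in kb and multiplied by 1000000. FPKM times length gave whole reads within 0.02 for all values below 1000 reads. Genes reaching a value of 1 in 3 or more libraries were tested with limma 3.58.1 (R 4.3.3, statmod 1.5.0; lmFit, eBayes with trend and robust) on log2(value + 1), which understates changes of low genes, with a term per region and age and Benjamini-Hochberg adjustment at 0.05. The fit was tested on simulated data. Tables and plots were made with pandas 2.3.3, numpy 2.4.6 and matplotlib 3.10.9 in Python 3.11.15. Named genes were the 12 largest increases and 12 largest decreases called in both fits without overlap, with a mean of at least 5 and an established symbol, up to 4 called members per list, 9 fixed genes, and the 6 smallest adjusted p in each direction of the region difference; a few of these are not reported here. The members and lists were chosen with earlier results of these data known. Alternatives were other scalings, filters, a pseudocount of 0.1, a replicate block, voom on recovered reads, library weights, VTA alone and each library left out.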

Additional observations from a re-analysis of the deposited data

Results flagged for a closer look

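For 59 of the 135 named genes the log2 change in VTA differed from the mean of the NAc and SNc changes, by the limma test of that difference with an adjusted p under 0.05. Of all genes tested, 1.5% had a higher change in VTA and 9.36% a lower one. The named genes were chosen largely by their VTA change or by this same difference, so the 59 is not a result about them. The value given for each gene is the VTA change minus that mean, so that a positive value means a higher change in VTA. Without VTA P30 replicate 3 the difference was not called for H2-DMa, Syn1, Stat2, Fabp5, Syt1 and Cyp51 (adjusted p = 0.0749, 0.0926, 0.0657, 0.121, 0.0781 and 0.0686). It was called in that fit as well for the other genes given here. On the deposited scale the difference was not called for 10 of them, which were Crmp1 (-1.78), Sox9 (-2.10), Gfap (-2.30), Ptprz1 (-1.01), Adora1 (-1.58), Stat2 (-1.95), Fabp5 (-2.28), Syt1 (-1.87), Pfkp (-0.102) and Shisa4 (-2.06).

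Among genes of microglia, complement and phagocytosis the difference was 2.45 for Tmem119, 2.32 for Selplg, 2.46 for C1qb, 2.77 for C1qc and 2.60 for Fcer1g. It was 3.03 for Ctss and 1.61 for Ctsz. Among genes of antigen presentation and immune signalling it was 3.90 for H2-DMa, 2.93 for Tapbp, 3.54 for H2-K1, 2.24 for H2-D1, 2.10 for Bst2, 5.81 for Ccl9, 3.31 for Il10rb, 2.51 for Nfkbia and 2.05 for Klf6, and -2.26 for Stat2. Other genes with a higher change in VTA were Clec4a3 (6.19), Bin2 (3.36), Itpripl1 (4.55), Tal1 (3.04), Herpud1 (3.94), Arhgdib (4.44), Ltc4s (4.27), Pdk3 (6.58) and Arpc1b (3.13). Bin2 had no read in the P7 libraries of VTA, so its difference depends on the pseudocount. Pdk3 read 4.79, 0.035 and 0.116 at P7 and 7.87, 5.12 and 177 at P30 in VTA, so P30 replicate 3 stood far above the rest, and without it the difference was 5.05 (adjusted p = 0.00179).

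Neuronal genes had a lower change in VTA, with a difference of -4.68 for Tubb3, -4.49 for Dpysl3, -4.38 for Tubb2b, -2.63 for Crmp1, -3.70 for Map2, -2.93 for Elavl2, -2.60 for Syn1, -2.57 for Syt1, -4.69 for Dclk1, -3.17 for Cnih2 and -4.37 for Cck. Glial and vascular genes with a lower change were Sox9 (-4.26), Slc1a3 (-5.02), Gfap (-4.22), Olig1 (-4.21), Ptprz1 (-3.20), Sox10 (-4.21) and Col1a1 (-3.80). Ttr differed by -9.30, with a change of 6.42 in SNc and -1.02 in NAc. Its SNc P30 level was very uneven, at 3025 ± 4132.5 (SD, n = 3). Hba-a2 differed by -5.18. Lipid and sugar genes with a lower change were Hmgcs1 (-4.22), Cyp51 (-2.81), Lss (-3.31), Fabp5 (-3.20) and Pfkp (-2.27). The rest were Tgfb2 (-3.25), Adora1 (-3.65), Tmem145 (-3.94), Clcn2 (-5.05), Bcr (-4.36), Trim9 (-4.88), Nim1k (-4.95) and Shisa4 (-4.26).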

How the results depend on the processing

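Counts of genes called higher and lower at P30, 393 and 3190 with all libraries, were 904 and 2048 on the deposited scale, 970 and 1902 with median-of-ratios scaling, 840 and 1168 with quantile normalization, 777 and 2052 with library weights, and 433 and 3565 with voom on recovered reads. Leaving out each VTA library in turn gave 293 to 954 higher and 1964 to 3354 lower, with the 954 and the 1964 both from leaving out P30 replicate 3. Of the genes called with all libraries, 305 higher and 1877 lower were called without P30 replicate 3 too. The VTA libraries alone gave 0 and 0 by limma with all 6 (2833 at an unadjusted p under 0.05), and 225 and 253 without P30 replicate 3. The counts for the difference between regions, 284 and 1767, were 468 and 1089 on the deposited scale, 471 and 1107 with median-of-ratios scaling, 694 and 745 with quantile normalization, 172 and 1045 with a pseudocount of 0.1, and 598 higher with library weights. They ranged from 196 to 604 and from 1155 to 1871 when each library of the 3 regions was left out, the 604 and the 1155 again without VTA P30 replicate 3. With the replicate number as a block the counts were 340 and 2728, and 174 and 1310 for the difference. Deviations of same-numbered P7 and P30 libraries correlated at -0.0069, 0.0575 and 0.0486, so the numbers were not taken to pair the libraries, and not every library correlated best with its own number.

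The sign turned on the deposited scale and with median-of-ratios scaling for Ptprz1 (0.022 and 0.083), Cd47 (0.135 and 0.191), mt-Nd1 (0.643 and 0.711), mt-Nd6 (0.522 and 0.59) and mt-Nd5 (0.791 and 0.858). These 2 settings are close to the same scaling. Both raise P30 replicate 3 far more than the other VTA libraries (size factor 0.0188 against 0.974 to 1.42). The part of that library in the sign changes was not tested. Of 40 list medians, 11 changed sign on the deposited scale, 13 with median-of-ratios scaling, 9 with quantile normalization and 8 without P30 replicate 3. Of 135 named genes, 112 to 124 kept their side of the threshold when a VTA library was left out. In the fit of the 6 VTA libraries alone 131 lost their call, and 66 did in that of the 5 without P30 replicate 3. Calls were lost for 32 genes with quantile normalization, 16 with library weights and 15 with voom. On the deposited scale 21 were lost, as with median-of-ratios scaling, besides the sign changes above. Among the losses with voom were P2ry12, C1qa, Irf8, Bhlhe41, Mbp and Ttr (adjusted p = 0.101, 0.0799, 0.0532, 0.0525, 0.0697 and 0.0517). Those with quantile normalization included Gad1, Tgfb2 and Mki67 (0.0743, 0.0819 and 0.0767), and those with library weights Hba-a2 (0.089). Genes under about 3 reads in a library were below what its depth resolves, which covers counting error only.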
